A study of Homo sapiens with 2 samples.

Results

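Metallothioneins were measured with 18 probes for 10 genes, MT1A, MT1B, MT1E, MT1F, MT1G, MT1H, MT1L, MT1X, MT2A and MT3, out of 41000 probes in all. The members were chosen by the gene name that the array gives each probe, and every such probe is described here. The compared cell populations, SAS and eSAS, had 1 one-colour microarray each. SAS is a line of human tongue squamous carcinoma cells, and eSAS is the name for the cells left after SAS cells had passed 5 rounds of selection for spheroid formation with the removable filter of the Spheroid Catch tool. The question was whether gene expression differs between the selected and the parental cells. No drug or transgene distinguished the groups, the labels give the same serum-containing culture medium for both, and total RNA came from cells in log growth phase. Whether the eSAS cells on the array were a mixed population or descended from a single cell is not given in the sources used here. With 1 array per condition there was no replicate and hence no test, and no p-value could be computed. In bulk RNA, fewer cells that express a gene and less of its RNA per cell cannot be told apart.

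Metallothioneins are small cysteine-rich proteins that bind zinc, copper and cadmium and buffer these metals in the cell. Metal activates their genes through MTF1, a zinc finger factor that binds short metal response elements in their promoters, and glucocorticoid and oxidative stress also induce several of them. Metallothionein protein is abundant in many carcinomas and has been studied as a binder of cisplatin. The human genes lie side by side on chromosome 16, and their transcripts are so alike that a probe for one may also bind the RNA of another.

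The promoters show the sequence feature through which the family is known to respond to metal. RefSeq promoter sequences (GRCh38.p14, plus strand) were at hand for 4 of the 10 members, and the 250 bases before the start of each gene are printed. Capitals mark matches on either strand to the core of the metal response element, searched as TGCACNC or TGCGCNC, with overlapping matches merged. The windows are chr16:56651636-56651885 for MT1B, chr16:56669564-56669813 for MT1H, chr16:56682220-56682469 for MT1X and chr16:56608334-56608583 for MT2A.
MT1B: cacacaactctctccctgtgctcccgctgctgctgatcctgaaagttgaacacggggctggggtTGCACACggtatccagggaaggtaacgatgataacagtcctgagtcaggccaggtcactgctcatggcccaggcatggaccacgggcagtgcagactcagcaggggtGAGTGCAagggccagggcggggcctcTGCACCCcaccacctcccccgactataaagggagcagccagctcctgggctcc
MT1H: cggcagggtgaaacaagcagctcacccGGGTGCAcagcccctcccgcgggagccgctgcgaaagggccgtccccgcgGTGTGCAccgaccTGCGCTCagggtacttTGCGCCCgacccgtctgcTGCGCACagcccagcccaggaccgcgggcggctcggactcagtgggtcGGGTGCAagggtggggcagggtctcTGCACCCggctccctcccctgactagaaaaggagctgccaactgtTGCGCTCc
MT1X: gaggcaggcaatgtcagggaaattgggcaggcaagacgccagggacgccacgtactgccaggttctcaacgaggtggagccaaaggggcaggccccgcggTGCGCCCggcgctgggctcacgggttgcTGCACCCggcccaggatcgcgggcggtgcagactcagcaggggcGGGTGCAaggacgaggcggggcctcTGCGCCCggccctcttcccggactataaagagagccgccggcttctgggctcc
MT2A: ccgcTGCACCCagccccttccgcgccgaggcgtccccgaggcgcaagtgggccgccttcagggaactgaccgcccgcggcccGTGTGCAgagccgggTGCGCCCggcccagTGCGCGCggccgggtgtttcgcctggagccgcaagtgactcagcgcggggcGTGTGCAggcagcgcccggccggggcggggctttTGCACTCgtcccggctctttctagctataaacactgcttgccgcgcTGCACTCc
MT1B held 3 matches, MT1X held 4, MT2A held 7 and MT1H held 8. Of 35116 promoters of the same length, 24.8% held at least 1 match, 1.05% held at least 3, 0.208% held at least 4 and 0.0142% held at least 8. One match sat at almost the same place in each, from -53 to -47 relative to the start in MT1B, MT1H and MT1X and from -54 to -48 in MT2A. The letters TATAAA began at -30 in MT1B and MT1X and at -29 in MT2A, were not found in this window of MT1H, and occurred in 6.8% of all these promoters on the strand of the gene. A match describes the letters only, and binding was not measured.

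The values that follow are processed signals, the background-subtracted brightness of a spot in linear units. Ratios are log2 of eSAS over SAS after each array was set to its 75th percentile, a processed signal of 1242 in SAS and 1196 in eSAS. Each member probe had 1 spot per array. The error given with a ratio is the scanner software's own error of both signals, 0.20 on the log2 scale for each measured member, and it leaves out variation between cultures. Spots of the same probe, where a probe was printed several times, differed in their log2 ratio with an SD of 0.076 (214 probes). Levels of different probes are not compared, because probes bind with different strength.

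Of the 18 probes, 16 were well above background on both arrays and at least 1 probe of every one of the 10 genes was among them. RNA of the family was detected in both populations, and 13 probes of 8 genes had signals of at least 50000 on both arrays. These 13 ranged from 59252 to 234143 in SAS and from 54186 to 234123 in eSAS. No member spot held a saturated pixel or carried a mark of the software for uneven pixels or outlying value. The brightest member spot had a mean pixel intensity of 234135 in SAS and 237536 in eSAS, below the saturation value of 778745. Whether hybridisation to these probes was still proportional to RNA amount was not tested.

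**Figure D1:**
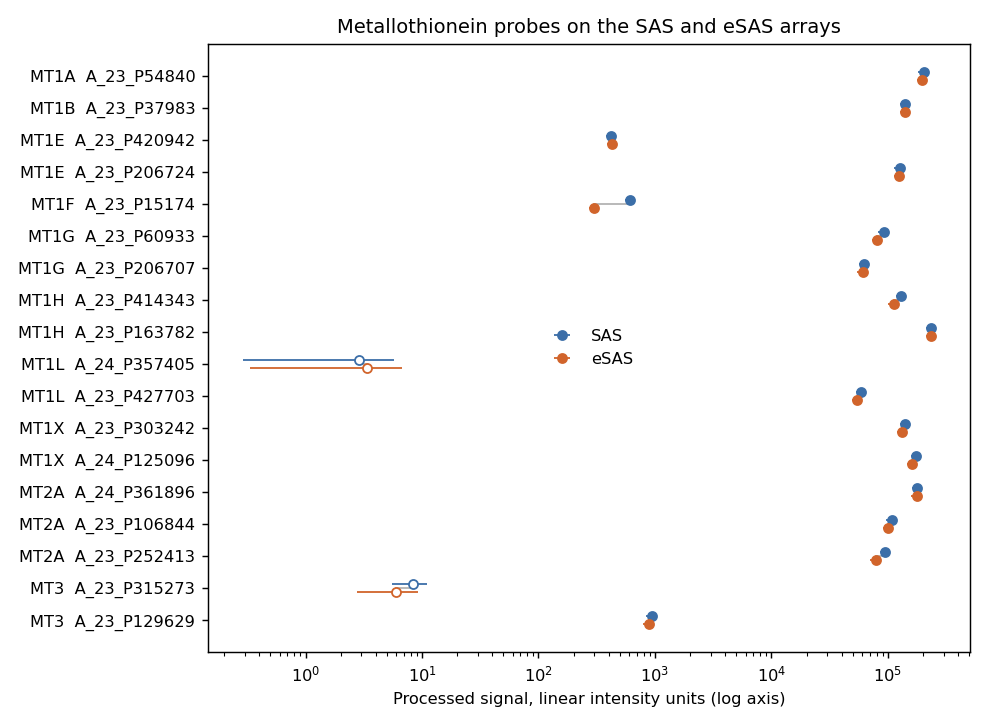
Processed signal (linear intensity units on a log axis) of the 18 metallothionein probes on the SAS array (blue) and the eSAS array (orange). Horizontal bars are the scanner software's error, hidden by the point where small, and open points mark probes not well above background on either array. MT1F is the one measured probe whose points stand clearly apart, at 612 and 299.

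MT2A is the isoform usually most abundant in human tissues, and 3 probes carry its name. The probe A_24_P361896 (hg18 chr16:55200782-55200841) read 178673 in SAS and 176073 in eSAS, a log2 ratio of 0.033 ± 0.20. The probe A_23_P106844 (chr16:55200833-55200892) read 107542 and 101063, a log2 ratio of -0.035. The probe A_23_P252413 (chr16:55200838-55200897) read 94682 and 78489, a log2 ratio of -0.22, which is 1.16-fold lower in eSAS. The probes named MT2A thus differed little between the populations, but they were not of 1 sign. The last 2 of these probes share 55 bases of the genome and still differed from each other by 0.18 in their log2 ratio, so a difference of this size arose within the same arrays and nearly the same target. The difference of A_23_P252413 was 1.06 times its software error. The array lists A_24_P361896 and A_23_P106844 for MT2A alone, but A_23_P252413 lists no RefSeq gene. Whether the signal of A_23_P252413 came from MT2A was not tested.

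Among the MT1 genes, the classical zinc and cadmium binding forms, MT1A and MT1B had 1 probe each. MT1A (A_23_P54840, within chr16:55230706-55231309) read 202218 in SAS and 196100 in eSAS, a log2 ratio of 0.010. MT1B (A_23_P37983, chr16:55244449-55244508) read 141164 and 140901, a log2 ratio of 0.052. Both stayed within their software error of 0.20. The MT1A probe is listed by the array for transcripts of MT1A and MT1M.

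MT1E had a probe of low signal and one of high signal. The probe A_23_P420942 (chr16:55218115-55218174) read 418 in SAS and 427 in eSAS, a log2 ratio of 0.086, the highest of the 16. The probe A_23_P206724 (chr16:55218354-55218413), 0.239 kb further along, read 125884 and 125636, a log2 ratio of 0.052. The gap between these ratios, 0.034, was below the SD seen for repeated spots. The array lists the brighter probe for MT1E alone, but the dimmer probe lists no RefSeq gene. Whether the signal of the dimmer probe came from MT1E was not tested.

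MT1G, MT1H and MT1X had 2 probes each. The MT1G probe A_23_P60933 (chr16:55258247-55258306, minus strand) read 91958 in SAS and 80540 in eSAS, a log2 ratio of -0.14. Its other probe, A_23_P206707 (within chr16:55258789-55259436, minus strand), read 62302 and 60532, a log2 ratio of 0.013. The MT1G probes therefore fell on opposite sides of 0 and differed by 0.15, with each within the software error.

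The MT1H probe A_23_P163782 (within chr16:55261957-55262342) read 234143 in SAS and 234123 in eSAS, a log2 ratio of 0.054, and is listed for MT1H and MT1M, with 1 further accession that was not resolved. The probe A_23_P414343, also named MT1H, read 129204 and 112159, a log2 ratio of -0.15. Its listed position, chr16:55228291-55228350, lies 33.7 kb from the first, between the probes of MT1JP and MT1A, and the array lists it for transcripts of MT1H, MT1L and MT1X. The signal of neither probe can therefore be assigned to MT1H alone, and their log2 ratios differed by 0.20.

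The MT1X probe A_23_P303242 (chr16:55275399-55275458) read 140757 in SAS and 132295 in eSAS, a log2 ratio of -0.035, and is listed for MT1A, MT1H and MT1X. The probe A_24_P125096 (chr16:55275411-55275470) read 175691 and 162351, a log2 ratio of -0.060, and is listed for MT1X alone. These probes share 48 bases and their log2 ratios differed by 0.024, within the spread of replicate spots.

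MT1L is recorded by RefSeq as a transcribed pseudogene, so a signal under its name cannot be read as protein-coding RNA. Its probe A_24_P357405 (chr16:55209103-55209162), the one whose transcript accession belongs to MT1L, read 2.88 in SAS and 3.37 in eSAS and was not well above background on either array. The probe A_23_P427703 (chr16:55210081-55210140), which lists no RefSeq gene, read 59252 and 54186, a log2 ratio of -0.075. Whether the bright signal of the second came from MT1L or from a paralogue was not tested.

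MT3, the form known from neurons, was measured by 1 of its probes. The probe A_23_P129629 (chr16:55182434-55182492) read 934 in SAS and 885 in eSAS, a log2 ratio of -0.025 within its error of 0.20. The probe A_23_P315273 (chr16:55182294-55182353), 0.14 kb away, read 8.33 and 6.01 and was not well above background on either array. The array lists both probes for MT3 alone. Whether the signal of A_23_P129629 came from MT3 or from a paralogue was not tested.

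MT1F was the member that stood apart. Its single probe, A_23_P15174 (chr16:55250578-55250637), read 612 ± 61.3 in SAS and 299 ± 30.1 in eSAS (software error). The log2 ratio was -0.98 ± 0.20, or 1.97-fold lower in eSAS, and the ratio divided by its error was -4.77. The mean pixel intensity before background subtraction was 705 and 372, and the median pixel was 708 and 374.5. The pixel SD divided by the mean was 0.103 over 63 pixels in SAS and 0.143 over 62 in eSAS, and the local background was 32 and 31. The 5 measured spots among the 8 nearest to it had log2 ratios from -0.67 to 0.15 with a median of 0.076. The array lists this probe for MT1F alone. The value rests on 1 spot per array, and no other probe of MT1F was on the array. The ratio ranged from -1.03 to -0.85 under the other settings except under normexp fitted on all spots, a background correction under which it was 0.12. The median of all probes then moved to 0.53, and MT1F relative to that median was -0.41.

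**Figure D2:**
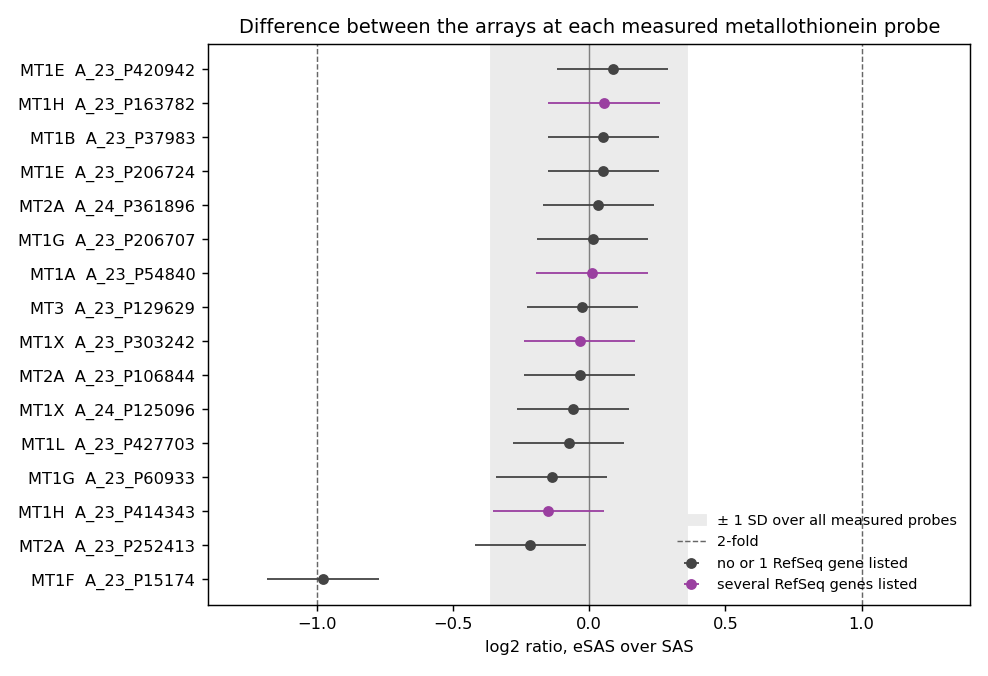
Log2 ratio of eSAS over SAS for the 16 measured metallothionein probes, ordered by value. Bars are the software error of about 0.20, the grey band is ± 1 SD (0.36) over all measured probes, and purple marks probes listed for several genes. MT1F lies at -0.98, and the other 15 lie between -0.22 and 0.086.

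Across the family, the 16 probes had a median log2 ratio of -0.030, beside -0.0039 for the 26659 probes well above background on both arrays. Of these 16, 7 were higher and 9 lower in eSAS, 14 lay within 1 software error of 0, and 11 lay within the SD of replicate spots. No member probe was at least 2-fold higher, where 1.83% of all probes tested were, and none was at least 2-fold lower, where 1.97% were. At 1.5-fold, 0 members were higher, against 4.43% of all probes, and 1 member, MT1F, was lower, against 6.12%. That single probe is 6.25% of the 16, so the number of lower members was near the background share. The sign of the family's median depended on the scaling, and it was 0.0040 when each array was centred on its median. The median of all measured probes was then 0.030, and the family's median minus it was -0.026 under both scalings. Without MT1F, the other 15 ranged from -0.22 to 0.086, with -0.025 as their median and 0.086 as the SD across probes. These 15 are not independent, since paralogue probes may bind the same RNA and probes of MT1X and MT2A overlap by 4 to 55 bases.

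Bright probes as a whole also varied little between the arrays. Among all 595 probes with signals of at least 50000 on both arrays, the median log2 ratio was -0.036 and the SD 0.13, and 0.336% were at least 1.5-fold apart. For the 13 bright metallothionein probes, which are among the 595, the median was -0.035 and the SD 0.087, and 0 were 1.5-fold apart. MT1F belonged to the dimmer range. Among the 10419 probes with SAS signals of 100 to 1000, the SD was 0.37, 5.92% were at least 1.5-fold lower in eSAS and 1.93% were at least as low as MT1F.

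**Figure D3:**
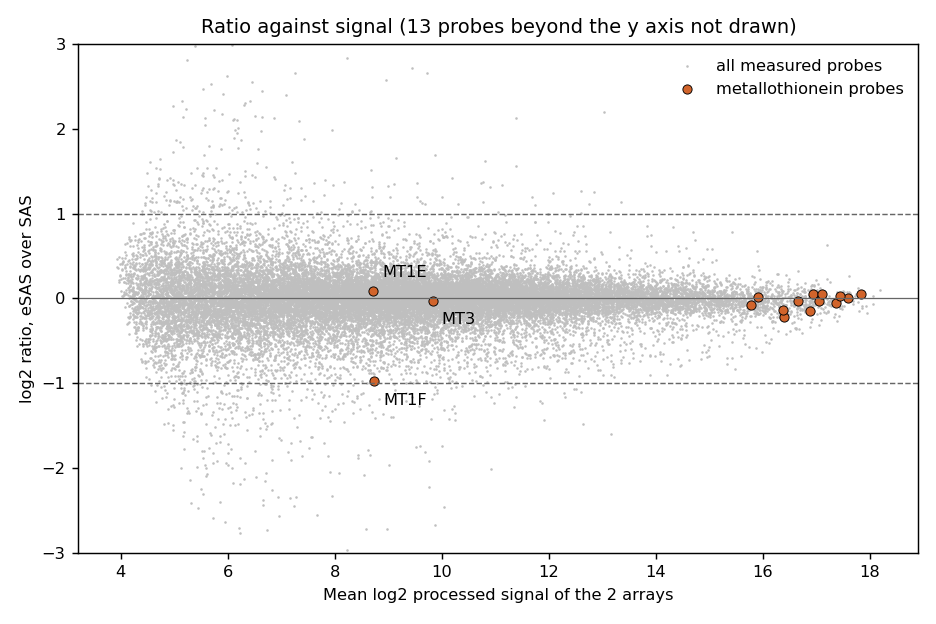
Log2 ratio of eSAS over SAS against the mean log2 processed signal of both arrays, for all probes well above background on both (grey) and the 16 metallothionein probes (orange). Dashed lines mark 2-fold, and a few probes beyond the y axis are not drawn. The bright metallothioneins sit at the right around 0, and MT1F sits just inside the lower line.

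With MT1F set aside, probes listed for several genes and probes listed for a single gene covered nearly the same range. The 4 probes listed for several metallothionein genes ranged from -0.15 to 0.054. Of the 11 probes listed for 1 gene, 9 were measured, and the 8 of them other than MT1F ranged from -0.14 to 0.052. Another 3 probes list no RefSeq gene, and they held both ends of the range without MT1F. They were A_23_P252413 of MT2A at -0.22, A_23_P427703 of MT1L at -0.075 and A_23_P420942 of MT1E at 0.086.

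A further 4 names of the family on the array were not among the members. MT1M, listed beside MT1A and MT1H on shared probes, read 20308 in SAS and 20598 in eSAS on its own probe, a log2 ratio of 0.075. MT1JP, a pseudogene, and MT4, a form of stratified epithelium, were not well above background on either array. The name MTL5 now stands for TESMIN, which lies on chromosome 11, and its measured probe had a log2 ratio of 0.10.

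The member probes span 93.18 kb of chromosome 16 (hg18, 55182294 to 55275470), and no annotation of that build was used, so exons are not given. MT1F lay between MT1B, with a log2 ratio of 0.052, and MT1G, with -0.14 and 0.013. The lower value was thus not seen at the probes named for the genes on either side. Whether those probes also bound RNA of other paralogues was not tested. An unnamed probe inside the cluster, A_23_P206718, had a log2 ratio of -0.36. Among 21 other genes or transcripts within 500 kb, 12 were measured, with a median of -0.032. The nearest measured gene on the MT3 side was BBS2, a gene of the cilium, which read 2944 in SAS and 2635 in eSAS, a log2 ratio of -0.11. On the MT1X side it was NUP93, a nuclear pore protein, with log2 ratios of -0.21 and -0.061. GNAO1, a G protein subunit, had measured probes at 0.095, -0.90 and -1.18, and another probe not well above background on either array. The probe at -1.18 (126 in SAS, 53.8 in eSAS) was the only 1 of 18 measured neighbour probes at least 2-fold apart. Among all probes tested, 1.83% were at least 2-fold higher and 1.97% lower.

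**Figure D4:**
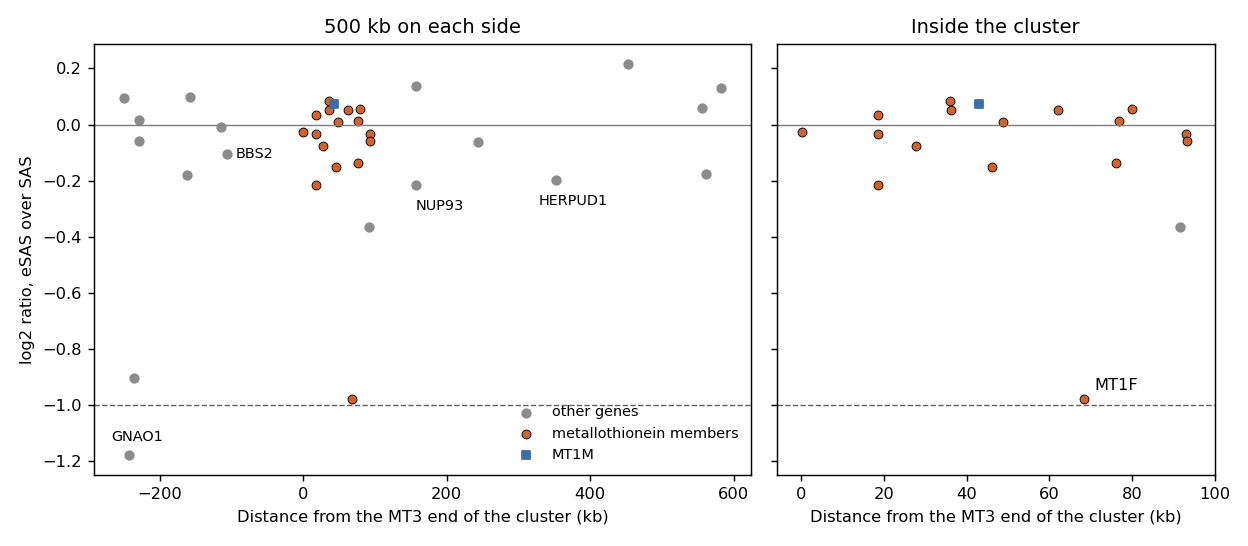
Log2 ratio of eSAS over SAS at measured probes by distance (kb) from the MT3 end of the metallothionein cluster, over the cluster and 500 kb on each side (left) and inside the cluster (right). Orange points are members, the blue square is MT1M, grey points are other genes, and the dashed line marks 2-fold lower. MT1F lies near -1 between neighbours close to 0.

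Genes that sense metal and move zinc were measured beside the family. MTF1, the factor that drives metallothionein genes, read 4055 in SAS and 4016 in eSAS on one probe, a log2 ratio of 0.041, and had a log2 ratio of 0.14 on a dim probe. SLC30A1, a zinc exporter that MTF1 also controls, had log2 ratios of -0.035 and 0.27. Of the 25 genes in this list, 19 were measured, with a median of 0.068 and a range of -0.61 to 0.40. Of these, 0 were 2-fold apart and 18 lay within 1.5-fold. Over all probes tested, 1.83% were at least 2-fold higher and 1.97% lower, and at 1.5-fold the shares were 4.43% and 6.12%. Most genes of any short list would lie within such limits, so these counts, here and for the lists below, are not particular to the lists. The median over all 19467 measured genes was -0.0012.

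Copper handling genes had a median of -0.042 over 10 measured genes from a list of 12 names. In that list COMMD1 and MURR1 are names of the same gene. One of them, ATP7B, a copper-exporting ATPase, read 524 in SAS and 223 in eSAS, a log2 ratio of -1.18 or 2.26-fold lower. The other 9 lay within 1.5-fold. Genes known to rise with cadmium or zinc had a median of 0.042 over 9 measured genes of 11, with 7 higher and 2 lower, 0 at 2-fold and 8 within 1.5-fold. The gene beyond 1.5-fold was GCLM, a subunit of the enzyme that starts glutathione synthesis, whose probes had log2 ratios of -0.49 and -0.72. The other lower gene, HMOX1, the heme oxygenase induced by cadmium and oxidative stress, read 180 in SAS and 132 in eSAS, a log2 ratio of -0.39. Genes known to rise with glucocorticoid had a median of -0.078 over 6 measured genes of 9, with 0 at 2-fold and 5 within 1.5-fold. That median turned to 0.061 without the spots in rows 450 to 510.

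The labelled cell type was checked against its markers. Of 10 squamous epithelium genes, 9 were matched by name and all 9 were measured in both populations, with a median log2 ratio of -0.55. Some were dim, such as KRT6A, which read 46.9 in SAS and 32.7 in eSAS, and PKP1, which read 110 and 59.6. KRT14, a basal keratin, read 8749 in SAS and 88.3 in eSAS on one probe and 3136 and 1286 on another, log2 ratios of -6.58 and -1.23. These values moved with the comparison in which MT1F was lower, and their part in it was not tested. Of 6 fibroblast genes, 0 were well above background on both arrays. LUM, a matrix proteoglycan, was at least 2.40-fold higher in eSAS, with a single spot that read 3.21 in SAS and 29.65 in eSAS, and COL1A1 was above background in SAS alone. Of the leukocyte genes, PTPRC and CD3E were not well above background. CD14 read 215 in SAS and 233 in eSAS, a log2 ratio of 0.17, and CD79A read 2461 and 2396, a log2 ratio of 0.016. Thus 2 of the 4 leukocyte genes were measured in both populations, and the source of their signal was not tested. Of the endothelium genes, PECAM1 was not well above background, CDH5 was so in SAS alone, and the measured VWF probe had a log2 ratio of -0.10.

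**Figure D5:**
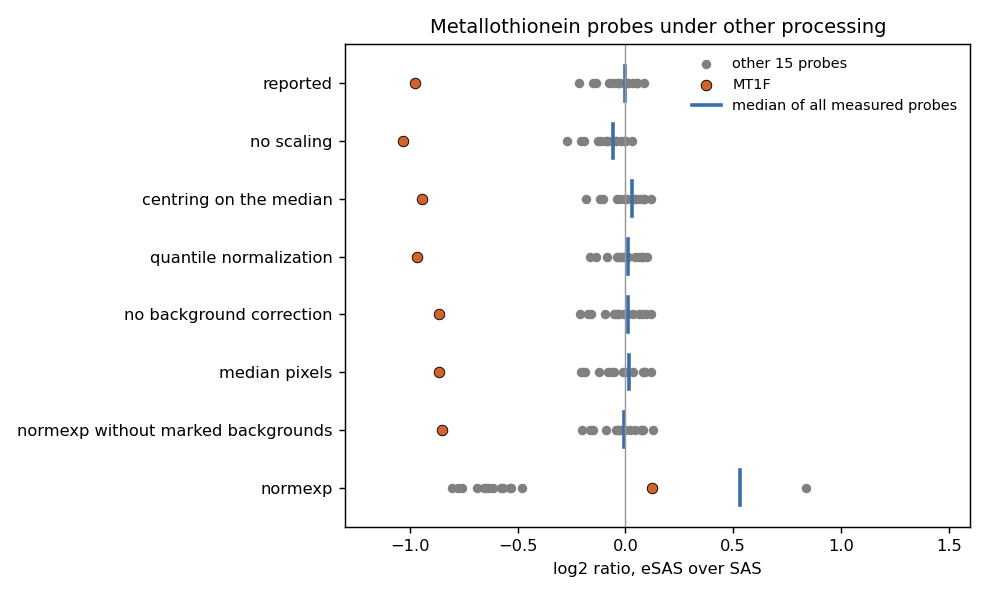
Log2 ratio of eSAS over SAS for MT1F (orange) and the other 15 measured metallothionein probes (grey) under the reported processing and 7 others, with the median of all measured probes as a blue bar. MT1F is the lowest member in each row but the last, normexp on all spots, where the bright members move to between -0.81 and -0.48 and the median of all probes to 0.53.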

How the data were processed

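Total RNA of SAS and eSAS cells was labelled with Cy3 and hybridised to 1 array each of the Agilent human 4x44K design, both on 1 slide. Per the file headers and labels, Agilent Feature Extraction 10.7.3.1 subtracted background, removed spatial trends within the array and replaced signals not above background. The intensity values the authors deposited are linear and not scaled between arrays, and the authors' series table was equal to the processed signal at every spot. Of the 43376 spots that are not controls, 69.39% in SAS and 67.52% in eSAS were well above background. Probe positions are those of the array design (hg18).

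Here the log2 processed signal was set relative to each array's 75th percentile, and spots of a probe were averaged. A probe counted as measured when more than 50 percent of its spots were well above background on both arrays. Calls also took probes measured on 1 array, with the dim side raised to at least the lowest signal well above background there (12.83 in SAS, 15.19 in eSAS), so that such a fold is a lower bound. Spots marked non-uniform or outlying were left out. List medians are over genes, each the mean of its measured probes. Genes named were every member, list genes at least 2-fold apart, MTF1, SLC30A1, HMOX1 and the nearest measured gene on each side, and the marker genes, GCLM and other neighbours were named after their values were seen. The members and lists were chosen with earlier results of these data known.

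The counting was tested on simulated data in which the changes put in were far larger than the noise. That checks the code only, and it did not cover the rule for probes measured on 1 array. No fit was made, since 1 array per condition leaves no residual degrees of freedom. The precision is limited by the number of arrays. Alternatives were no scaling, median centring, quantile normalization, normexp (offset 50), no background correction, median pixels, the series table, other filters, marked spots kept, rows 450 to 510 left out and 1 value per gene. R 4.3.3, limma 3.58.1, Python 3.11.15, numpy 2.4.6 and pandas 2.3.3 were used.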

Additional observations from a re-analysis of the deposited data

How the results depend on the processing

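No paired analysis was possible because each condition has 1 array, and for the same reason no array could be left out and the slide could not be used as a block. The background correction moved the values most. Under normexp fitted on all spots, the median of the metallothionein probes was -0.59, MT1F was 0.12, and the medians were 0.66 for zinc, -0.24 for copper, 0.26 for cadmium or zinc response, 0.78 for glucocorticoid response and -0.11 for the neighbours. Probes at least 2-fold higher then numbered 11264 in place of 520 and 2-fold lower 183 in place of 559, so that 98.4% of calls were higher in place of 48.2%, and the median of all probes moved by over 0.1, to 0.53. With spots of marked local background left out of that fit, a setting chosen after seeing the data, MT1F was -0.85 and the counts were 86 and 156 (35.5% higher). With no background correction MT1F was -0.87 and the counts were 125 and 161. With median pixels they were -0.86, 166 and 159. The counts were 1375 and 1536 with no filter on dim probes, and 250 and 335 with both arrays well above background. Without scaling, MT1F was -1.03 or 2.04-fold lower, which makes 1 member at least 2-fold lower, as does a limit of 1.5-fold. The 2 dim member probes had a value with no filter only, 0.28 for MT1L and -0.42 for MT3. The glucocorticoid median was 0.15 with no filter and 0.061 without rows 450 to 510. The cause of these shifts was not tested. Of the 15 other measured member probes, 15 moved by more than the replicate-spot SD under normexp, 1 under normexp without marked backgrounds and 0 under the other settings.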
